A study of Caenorhabditis elegans with 59 samples.

Results

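In wild-type Caenorhabditis elegans grown for 50 generations, 1162 genes carried small RNAs of the mutator class that stood at 0.25 or less of the wild-type level in animals without the PIWI Argonaute PRG-1. They were taken from the 2243 genes that the authors' generation 50 small RNA table assigns to that class (written mut there), out of 23411 features of all kinds. A gene was a member when its mean normalized small RNA level in the N2 wild type was at least 50 and its prg-1 mean was at most 0.25 of the N2 mean. Transposon entries and 6 further IDs were left out. The members were thus chosen by the generation 50 small RNA values of prg-1 and N2, and these values are given below as a description without a test. The question asked of the other libraries was where else these small RNAs were lost, and what the mRNA of the same genes did.

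PRG-1 binds piRNAs, which pair imperfectly with germline transcripts and bring in RNA-dependent RNA polymerases that copy the transcript into antisense secondary small RNAs. The copying takes place at perinuclear mutator foci, and the products are loaded into worm-specific WAGO Argonautes that silence the target transcript in the cytoplasm and the nucleus. MUT-14 and SMUT-1 are closely related DEAD-box RNA helicases of those foci that stand in for each other in the germline. Silencing of this kind can be inherited over generations, and secondary small RNA production can in some cases continue after the piRNA that started it is gone.

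All libraries came from whole gravid adults kept at 20 °C. The wild type was N2. The prg-1 mutant was SX922, prg-1(n4357) I, and a second allele came from WM161, prg-1(tm872) I. The mut-14 smut-1 mutant was GR1948, with the alleles mut-14(mg464) and smut-1(tm1301), both on chromosome V, and unc-119(ed3) on III. The triple mutant was GR2070, which joins prg-1(n4357) to those alleles of mut-14 and smut-1. Its label lists no unc-119 allele, so a comparison of these 2 strains also crosses that difference. So does a comparison of GR1948 with N2. Generation 1 animals were 72 h old and the tm872 animals, with an N2 of their own, 68 h old. For generation 50 the labels give no age, and each of the 3 libraries of a genotype is an independently kept line. Every group had 3 libraries except generation 1 small RNA of mut-14 smut-1, which had 2. Each mutant is a single strain. Nothing in the labels says that the generation 1 or 68 h replicates were separate cultures, so p-values there measure the spread between these libraries, which may be technical. In RNA from whole animals, fewer cells of a type and less RNA per cell cannot be told apart.

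The values are the authors' normalized read counts. Recovered small RNA reads per library ran from 224056 to 2117438 at generation 1, from 1533620 to 2452755 at 68 h and from 4417660 to 13038182 at generation 50. The labels checked out for the mutated genes in the mRNA: prg-1 fell by 1.40 at generation 1 and by 1.42 at generation 50 on the log2 scale in prg-1, and mut-14 fell by 5.38 and fell by 4.62 in mut-14 smut-1. Cell type markers moved with genotype. The summed mRNA of 12 sperm genes was 533 to 757 in generation 1 N2, 1990 to 2342 in prg-1, 5056 to 5788 in the helicase double mutant and 7339 to 9090 in the triple mutant. At generation 50 it was 99 to 2202 in N2, a wide spread between wild-type lines, 2855 to 6316 in prg-1, 2650 to 5854 in the helicase double mutant and 3898 to 7093 in the triple mutant. The sum of 10 oocyte genes was 195496 to 210548, 161373 to 173217, 120629 to 133611 and 122585 to 140540 in the same order at generation 1. No listed sperm or oocyte marker was at 0 in any group. The part of these shifts in the mRNA results below was not tested.

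Members took up a large share of the wild-type small RNA pool. In the generation 50 libraries that chose them they held 20.3% to 20.8% of all counted small RNA in N2, 0.56% to 0.60% in prg-1, 0.31% to 0.47% without both helicases and 0.27% to 0.32% in the triple mutant. The N2 mean of a member had a median of 403.5 and ran from 50.6 to 33637, and the ratio of prg-1 to N2 had a median of 0.0344. Of the members, 938 had a ratio at or under 0.5 times that limit and 842 an N2 mean of at least 200. Just inside the ratio limit stood F22D6.9 at 0.2492, with Y39B6A.13 and C02F12.8 both at 0.2483, and just outside stood F32D1.11 at 0.2503, K08F11.6 at 0.2544 and egl-30, a G protein alpha subunit, at 0.2552. Just inside the level limit stood F17A9.4 at 50.6, E02H9.1 at 52.5 and R05G9.3 at 53.6, and just outside stood lgc-30 at 49.7, lron-4 at 49.4 and C50D2.10 at 48.6. The authors mark 69 members as pseudogenes (5.94%), against 52 of the 427 mut-class genes whose ratio lay between 0.5 and 2 (12.18%).

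In libraries that played no part in the choice, the same genes had a far smaller share of small RNA in prg-1 at generation 1. The labels do not say how long that strain had been without PRG-1. Their share of counted small RNA was 32.7% to 33% in N2 at generation 1 and 5.99% to 6.26% in prg-1. With the tm872 allele it was 32% to 33.9% in N2 and 10.5% to 10.6% in the mutant. The totals behind these shares hold no piRNAs or miRNAs at generation 1 and 68 h and do hold them at generation 50, so shares are not compared between tables. The 363 mut-class genes whose ratio exceeded 2 at generation 50 went the other way, from 7.81% to 8.06% in N2 to 28.2% to 29.1% in prg-1 at generation 1.

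**Figure D1:**
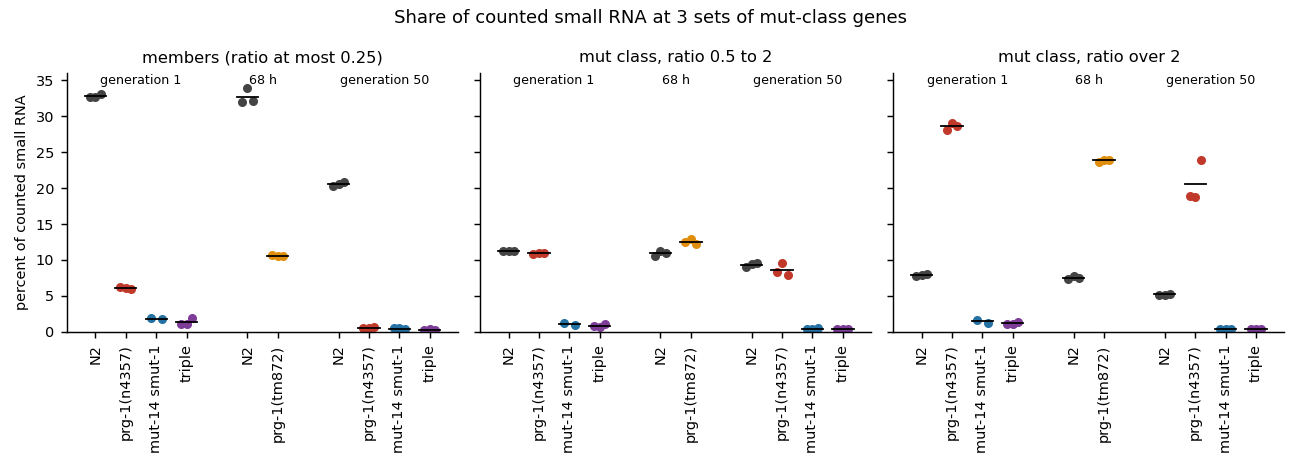
Percent of all counted small RNA at the members and at 2 other sets of mut-class genes, one point per library and a bar at each group mean. At the members, generation 1 N2 libraries lie at 32.7% to 33% and prg-1 libraries at 5.99% to 6.26%; the generation 50 N2 and prg-1 points entered the choice of all 3 sets.

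Gene by gene, 967 of the 1034 members tested at generation 1 were lower in prg-1 and 24 higher (limma, adjusted p under 0.05), with a median log2 change of -4.44. Over all 7418 features tested, 38.3% were lower and 27.9% higher, with a median of -0.105. With the 2 groups fitted alone, or with edgeR on recovered reads, 42 members were higher. Of the members tested, 630 passed the filter on low values through N2 alone and so had to differ. A further 78 members had no row in this table and 50 were under the filter. Counted without a test, 926 of the 1033 members with an N2 mean of at least 10 had a ratio at or under 0.25 (89.6%, against 24.2% of all such features), and 46 had a ratio over 1. Log2 changes throughout are of the normalized value plus 1, which understates the change of low genes.

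The tm872 allele gave 962 members lower and 58 higher of 1035 tested (limma, adjusted p under 0.05), with a median log2 change of -4.79. The shares over all features were 41.4% lower and 34.2% higher. Here 712 members passed the filter through N2 alone, and 918 of 1036 had a ratio at or under 0.25 (88.6%, against 25.5% of all features).

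W03H9.2, a gene among the 10 with the highest N2 level, shows the common pattern. Its generation 1 small RNA was 6536, 6146 and 5996 in N2 and 136.1, 37.1 and 39.5 in prg-1. At 68 h it was 10892, 11243 and 11090 in N2 and 146.2, 70.9 and 96.6 in tm872. No mutant library came near a wild-type one. The same held for xol-1, the switch gene of sex determination and dosage compensation, at 413.7, 388.8 and 421.6 in generation 1 N2 and 5.67, 1.86 and 1.98 in prg-1 (log2 change -6.73 ± 0.54 SE). Its prg-1 values all lay under the filter minimum of 10, so no test is read from this gene.

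The F-box genes, which encode substrate adaptors of ubiquitin ligases and have expanded greatly in nematodes, were the most numerous named family: 51 of the 83 mut-class F-box genes were members. All 50 that were tested were lower with tm872 and 49 of 50 with n4357 at generation 1. Members also held 16 of the 32 MATH and BATH genes, another expanded family of ubiquitin ligase adaptors, and all 16 were lower in both alleles. All 15 nuclear hormone receptors among the members, of 20 in the mut class, were lower in both alleles, as were all 4 pals genes, of 5 in the class. The homeobox and other transcription factor names gave 10 members of 19 in the class; all 10 were lower with n4357 and 9 of 10 with tm872. Of all members tested 93.5% were lower with n4357 and 92.9% with tm872, so these families match the members as a whole, and many of their genes, having passed the filter through N2 alone, had to be lower.

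The exception in the F-box family was fbxa-218. Its small RNA was 2318, 2159 and 2287 in generation 1 N2 and 2925, 3361 and 3289 in prg-1(n4357), a log2 change of 0.50 ± 0.67 that missed the threshold with the spread pooled over all 4 genotypes (limma adjusted p = 0.528) and passed it with the 2 groups fitted alone (limma adjusted p = 0.00012). Under library totals the change was -0.09. With tm872 it was 3659, 4158 and 3788 in N2 and 41.1, 14.8 and 23.4 in the mutant, a log2 change of -7.25. The generation 50 n4357 lines were at 61.8, 31.5 and 25.5. The generation 1 n4357 libraries lay above N2 in every case, and the tm872 and generation 50 mutant libraries far below it.

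Both alleles lost the same small RNAs at most members, with a minority that went opposite ways. Of 1033 members tested in both tables, 923 were lower in both. Over all 7070 features tested in both, 2447 were. Of the members, 630 at generation 1 and 712 at 68 h passed the filter through N2 alone and so had to be lower there. Another 35 members were lower with n4357 and higher with tm872. That is 3.62% of those lower with n4357, near the 3.22% among all features lower with n4357. The reverse held for 13, or 54.2% of those higher with n4357, against 4.75% among all features higher with n4357. Higher in both were 11, which is 45.8% of the n4357 list of 24 and 19% of the tm872 list of 58; of all features higher with n4357, 80.9% were higher in both. Across members the log2 changes correlated with Pearson r = 0.619 and Spearman rho = 0.75; this describes genes, which are not independent replicates, and the N2 libraries of the 2 tables were separate. The labels give no generation for the tm872 libraries. Strain, allele, age and any difference in generation go together between the tables and cannot be told apart.

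klp-20, a subunit of the kinesin-II motor of cilia, had the highest tm872 to N2 ratio among members. Its small RNA was 310.0, 370.2 and 320.5 in 68 h N2 and 15501, 15307 and 15204 in tm872, a log2 change of 5.52 ± 0.07. In generation 1 it was 181.4, 174.7 and 166.7 in N2 and 31.8, 21.4 and 24.7 in n4357, a log2 change of -2.72 ± 0.38. The libraries of each comparison did not overlap, in opposite directions.

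Other genes were likewise higher with tm872 and lower with n4357. ceh-20, the worm PBX homeodomain factor, was 1217, 1260 and 1156 in 68 h N2 and 10280, 10515 and 10422 in tm872, but 540.1, 537.7 and 595.7 in generation 1 N2 and 25, 10.2 and 18.8 in n4357. nlp-12, a neuropeptide gene, was 74.6, 74.5 and 77.6 in N2 and 1240, 1280 and 1383 in tm872, and in n4357 it was at 0 in 2 libraries and 0.988 in the other. cdh-1, a cadherin, changed by 3.91 and by -4.63 on the log2 scale. Each of these genes had its mutant libraries wholly above N2 in one table and wholly below it in the other.

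citk-1, a homolog of the cytokinesis kinase citron, was the mirror image. Its generation 1 small RNA was 582.8, 661.2 and 591.2 in N2 and 6521, 7170 and 6929 in n4357, a log2 change of 3.49 ± 0.25. With tm872 it was 1007, 1215 and 1117 in N2 and 100.1, 91.0 and 85.0 in the mutant. txbp-3 behaved alike, at 41.9, 37.5 and 35.9 in N2 and 1667, 1811 and 1799 in n4357, a log2 change of 5.48 ± 0.21, and with a log2 change of -3.73 in tm872. At generation 50 the n4357 lines were at 105.8, 110.1 and 202.9 for citk-1 and at 8.38, 2.78 and 12.7 for txbp-3, below every N2 line, as the rule requires.

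Among the 11 genes that were higher in both alleles, C35B1.5 rose by 4.10 with n4357 and by 4.72 with tm872, and idpp-2 by 5.14 and 1.08. Their level at generation 50 was at most 15.7 in any prg-1 line. prde-1, which is required for piRNA transcription, was also among them but at low levels: 55, 37.5 and 41.9 in generation 1 N2 and 76, 81.7 and 79.1 in prg-1. In the generation 50 table the N2 lines were at 3100, 3700 and 3412 for prde-1 and the prg-1 lines at 256.6, 456.9 and 228.3. prde-1 is 1 of 55 members that the authors' table also lists in another small RNA class.

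**Figure D2:**
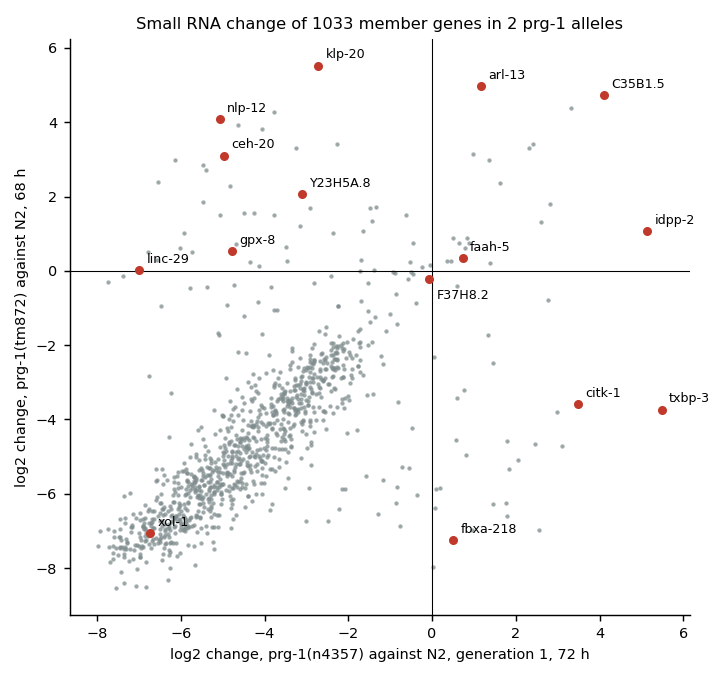
Small RNA log2 change of the 1033 members tested with both prg-1 alleles, n4357 at generation 1 on the horizontal axis and tm872 at 68 h on the vertical axis. Most points lie below 0 on both axes; klp-20, nlp-12 and ceh-20 lie above 0 with tm872 only, and citk-1 and txbp-3 with n4357 only.

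A few members with high N2 levels kept much of their small RNA in generation 1 prg-1 or in tm872. F37H8.2 had the highest N2 level of all members. At generation 1 it was 11001, 11214 and 11473 in N2 and 10493, 11027 and 10675 in prg-1, a log2 change of -0.07 ± 0.67 (limma adjusted p = 0.937), or -0.66 under library totals (limma adjusted p = 0.418). With tm872 it was 16612, 18499 and 16632 in N2 and 14321, 14871 and 15317 in the mutant, a log2 change of -0.22 (limma adjusted p = 0.0157; 0.0632 without tm872 replicate 1), or -0.47 under library totals. The groups overlapped at generation 1 and lay apart by a small margin at 68 h.

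At generation 50 F37H8.2 was 31069, 36361 and 33481 in N2, and the 3 prg-1 lines differed among themselves at 288.0, 4701 and 12803. Every line was below N2, line 3 least and line 1 most. linc-29, annotated as a long intergenic noncoding RNA, was kept with 1 allele only: 20026, 22914 and 19948 in 68 h N2 against 20770, 21007 and 21618 in tm872 (limma adjusted p = 0.863), but 13559, 13468 and 13248 in generation 1 N2 against 350.5, 57.6 and 56.3 in n4357, a log2 change of -6.99.

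faah-5, a fatty acid amide hydrolase homolog, was another. Its generation 1 small RNA was 2653, 2705 and 2911 in N2 and 4318, 4818 and 4609 in prg-1, a log2 change of 0.73 that missed the threshold with all 4 genotypes in the fit (limma adjusted p = 0.289) and passed it with the 2 groups alone (limma adjusted p = 7.03e-06); under library totals it was 0.14. At generation 50 the N2 lines were at 7086, 8042 and 7533 and the prg-1 lines at 84.8, 96.2 and 1408. The generation 1 prg-1 libraries were all above N2 and the generation 50 lines all below.

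**Figure D3:**
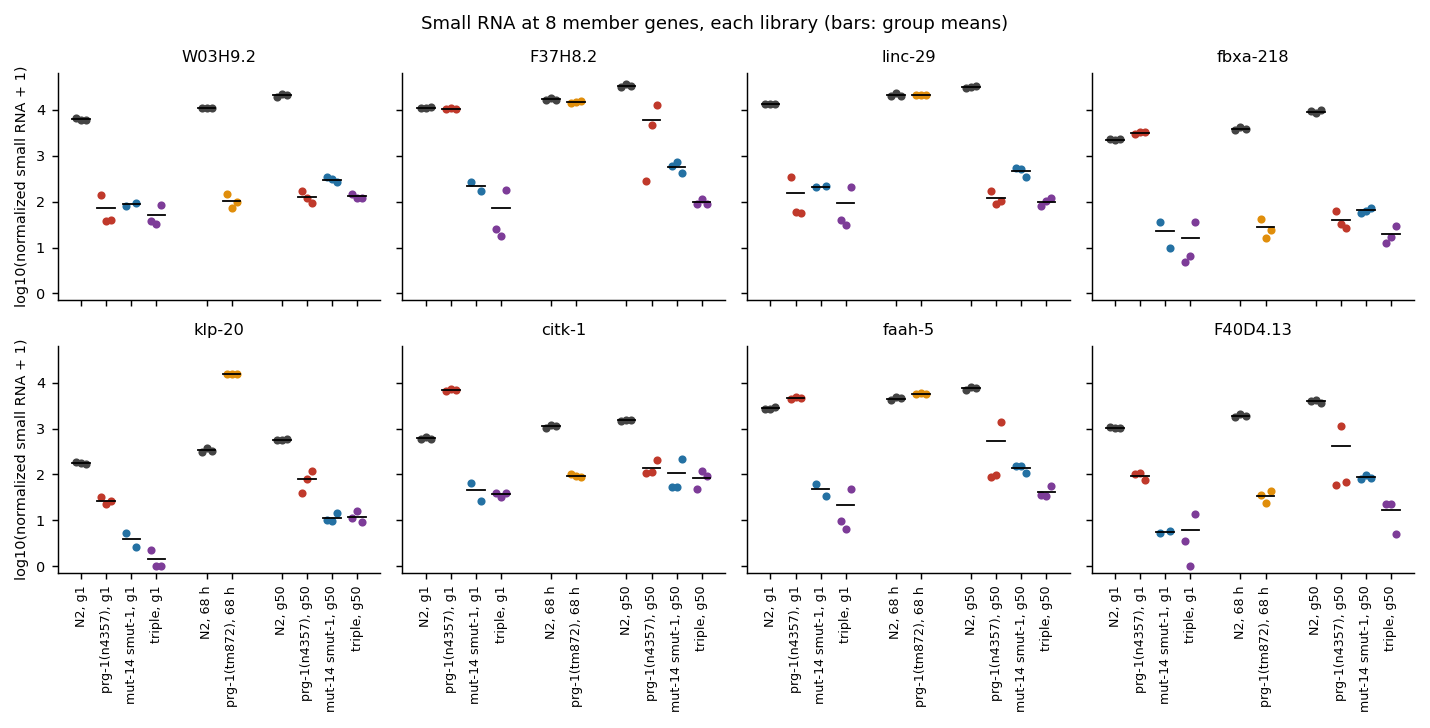
Normalized small RNA of 8 members in each library, as log10 of the value plus 1, with bars at group means; levels are comparable within a table and not across tables. W03H9.2 is low in every mutant group, F37H8.2 and faah-5 are at wild-type height or above in generation 1 prg-1, and klp-20 and citk-1 change in opposite directions with the 2 alleles.

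Without the mutator helicases small RNA was low at nearly all members. They were drawn from a class named for the mutator pathway, so this loss may be built into the set. It is not read as a result about the members. Counted without a test, 997 of the 1033 members with an N2 mean of at least 10 had a ratio of mut-14 smut-1 to N2 at or under 0.25 at generation 1. No share over all features is given for that count. In the fit, where 630 members passed the filter through N2 alone and so had to be lower, 1025 of 1034 were lower in mut-14 smut-1 (limma, adjusted p under 0.05; 46.9% of all features), with a median log2 change of -5.35, and the only one that was higher (21.9% of all features) was prde-1, by 0.86 ± 0.20 (limma adjusted p = 0.00266). The genes whose small RNAs persisted in prg-1 were lost here too. F37H8.2 was 267.9 and 170.1, faah-5 59.3 and 32.9, fbxa-218 35.1 and 8.83, and citk-1 63.7 and 25.7 in the mut-14 smut-1 libraries, far below N2 in each case. The median ratio to N2 was 0.0128 without both helicases, 0.0105 in the triple mutant and 0.0323 in prg-1. Among the 427 mut-class genes with a generation 50 ratio of 0.5 to 2, 246 were lower and 4 higher in mut-14 smut-1, while in prg-1 78 were lower and 73 higher of 256 tested. Of the mut-class genes with a ratio over 2, 215 of 225 tested were lower in mut-14 smut-1 (95.6%).

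The residue differed at few members at generation 1 in the triple mutant, which differs from mut-14 smut-1 at prg-1 and at unc-119. Of 1034, 46 were lower and 5 higher in the triple mutant than in mut-14 smut-1 (limma, adjusted p under 0.05; 3.18% and 2.9% of all features), with a median log2 change of -0.10. The 5 higher ones were Y66D12A.3, Y23H5A.8, pot-1, Y22D7AL.7 and cas-2, by 0.69 to 1.88. These counts rest on single libraries. The triple mutant's replicate 3 had 1.95% of its small RNA at members, against 1.07% and 1.08% in the other libraries, and without it 103 members were lower and 10 higher. Without replicate 1 of mut-14 smut-1 the counts were 14 and 2, without its replicate 2 there were 12 higher, and without the triple mutant's replicate 1 there were 29 lower.

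In generation 50 lines the triple mutant was lower than mut-14 smut-1 at 360 members and higher at 18 of 1162 (limma, adjusted p under 0.05), with a median log2 change of -0.62. Over all features 48.6% were lower and 6.05% higher. The full table includes the piRNAs, which prg-1 loss removes; without piRNAs and miRNAs 15% of features were lower and 10.2% higher. Without line 3 of mut-14 smut-1 there were 28 higher. spds-1, which encodes spermidine synthase, fell most clearly, from 95.3, 85.5 and 86.2 to 3.84, 5.35 and 2.04 (log2 change -4.31 ± 0.29, limma adjusted p = 3.68e-08). Its triple mutant lines were all below the mut-14 smut-1 lines.

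mRNA of the members did not move in 1 direction in generation 1 prg-1. Of 993 members tested, 290 were higher and 235 lower (limma, adjusted p under 0.05), with a median log2 change of 0.06. Over all 14618 genes tested, 25.6% were higher and 32% lower, against 29.2% and 23.7% of members. With values scaled to library totals, which moves the median change of all genes from -0.02 to 0.10, the members split 340 to 144. Without that scaling, 109 members were higher by 2-fold or more (11%) and 26 lower (2.62%), near the 10.5% and 1.92% of all genes. Among the members with lower small RNA and a tested mRNA at generation 1, 236 were higher in mRNA (27.8%), 215 lower (25.3%) and 398 passed neither way. Among all features with lower small RNA and a tested mRNA, 16.6% were higher in mRNA and 44.5% lower. Across the 907 members tested for both the changes correlated with r = -0.013 and rho = -0.104. Sperm markers were higher (12 of 12) and oocyte markers lower (7 of 10) in the same libraries, and the part of these in the result was not tested.

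The largest increases started from different N2 levels. Y23H5A.8 mRNA was 10.3, 8.49 and 8.39 in N2 and 530.4, 520.6 and 475.8 in prg-1, a log2 change of 5.67 ± 0.14 (limma adjusted p = 1.74e-14). F40D4.13 was 15.5, 13.2 and 16.8 in N2 and 745.9, 676.1 and 687.5 in prg-1, a log2 change of 5.45. timm-17B.2, named for its similarity to a translocase subunit of the mitochondrial inner membrane, was 123.7, 102.9 and 132.1 in N2 and 5005, 5005 and 5421 in prg-1, a log2 change of 5.42 ± 0.09. In each gene every prg-1 library stood far above every N2 library.

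Further large increases were seen in single genes of both families of ubiquitin ligase adaptors. fbxb-97, an F-box gene, was 32.6, 38.7 and 28.3 in N2 and 449.2, 469.9 and 452.7 in prg-1, a log2 change of 3.75 ± 0.11. bath-13 was 18, 17 and 19.9 in N2 and 305.7, 321.3 and 343.4 in prg-1, a log2 change of 4.07. Other F-box members did not follow: of 47 tested 7 were higher and 8 lower, with a median of -0.11. Of 16 MATH and BATH members 6 were higher and 4 lower. Over all genes tested 25.6% were higher and 32% lower. Under library totals the F-box counts were 10 and 6 and the MATH and BATH counts 7 and 1.

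The members with the highest wild-type small RNA levels were higher in mRNA, by differing amounts. Over all genes tested, 25.6% were higher in prg-1 at generation 1 and 7.41% at generation 50. All 10 of the members with the highest N2 level, a value that the rule used, were higher in prg-1 at generation 1 and again at generation 50. They included F37H8.2, whose mRNA was 71.3, 72.7 and 69.2 in N2 and 391.2, 331.0 and 363.3 in prg-1 (log2 change 2.33 ± 0.08, limma adjusted p = 5.78e-13), although its small RNA change in those animals did not pass the test. linc-29 rose by 2.49 and got-1.2, a glutamate oxaloacetate transaminase homolog, by 0.37. Members were also split into tertiles by generation 50 N2 small RNA level, which the rule used and which is not per length. No such split of other mut-class genes is given. In the highest tertile 158 of 351 members were higher and 49 lower, with a median of 0.31. In the middle tertile 79 and 84 of 333 passed, and in the lowest 53 and 102 of 309, with medians of -0.02 and -0.10. Under library totals the 3 medians were 0.43, 0.10 and 0.03 and the calls 178 to 30, 91 to 50 and 71 to 64, so the sign in the lower 2 tertiles depends on scaling while the order does not.

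**Figure D4:**
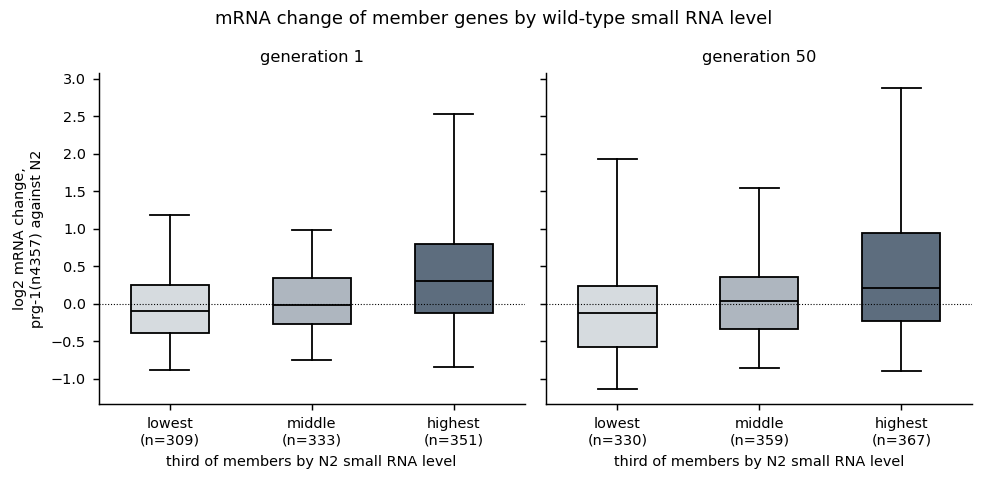
mRNA log2 change in prg-1(n4357) against N2 for members split into tertiles by N2 small RNA level, with boxes at the quartiles, a line at the median and whiskers at the 5th and 95th percentiles of genes. That small RNA level is a value the membership rule used. The median is 0.31 in the highest tertile and -0.10 in the lowest at generation 1, and 0.22 and -0.12 at generation 50.

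Genes lower in generation 1 prg-1 included 2 whose small RNA had risen. citk-1 mRNA was 1250, 1227 and 1212 in N2 and 469.5, 427.6 and 450.5 in prg-1, a log2 change of -1.45 ± 0.06 (limma adjusted p = 2.24e-11). txbp-3 was 100.5, 87.8 and 105.9 in N2 and 42, 35 and 29.8 in prg-1, a log2 change of -1.44. In all, of the members with higher small RNA and a tested mRNA, 4 were lower in mRNA (these 2, T16G12.4 and lec-12), 7 higher and 9 passed neither way. These were 20% lower and 35% higher, against 61.9% and 9.24% of all features with higher small RNA and a tested mRNA. Larger decreases came from members whose small RNA was lost: csp-1, a caspase gene, was 76.1, 65.1 and 60.7 in N2 and 15.2, 12 and 23 in prg-1 (log2 change -1.99), and C52A10.3 was 83.3, 76.4 and 66.1 in N2 and 17.4, 20.5 and 16.6 in prg-1 (-1.99). In all 4 genes the groups were apart.

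Several small RNA pathway genes are themselves members, smut-1 among them, whose mRNA changed by -2.76 in generation 1 mut-14 smut-1, where it is mutated. parn-1, the ribonuclease that trims the 3′ ends of piRNAs, had small RNA of 885.7, 877.9 and 897.7 in generation 1 N2 and 148.6, 120.7 and 127.5 in prg-1. Its mRNA was 817.4, 774.8 and 798.2 in N2 and 2691, 2601 and 2731 in prg-1, a log2 change of 1.75 ± 0.05. wago-2, a WAGO Argonaute, rose by 0.76 and rde-11, a zinc finger protein of the RNA interference pathway, by 0.75. These were the 3 increases with the smallest p in a list of piRNA and mutator pathway genes, of which 68 were tested, 6 were higher and 45 lower. Among the lower ones were prg-1 itself, nrde-3, the Argonaute of nuclear RNA interference in the soma (-1.0), and rde-2, a mutator factor (-0.44). Oocyte and germline markers were lower in the same libraries. xol-1 and pals-22, which holds back a defence program against intracellular pathogens, lost their small RNA without a called mRNA change, at 0.25 ± 0.18 (limma adjusted p = 0.25) and 0.34 ± 0.14 (limma adjusted p = 0.0519).

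**Figure D5:**
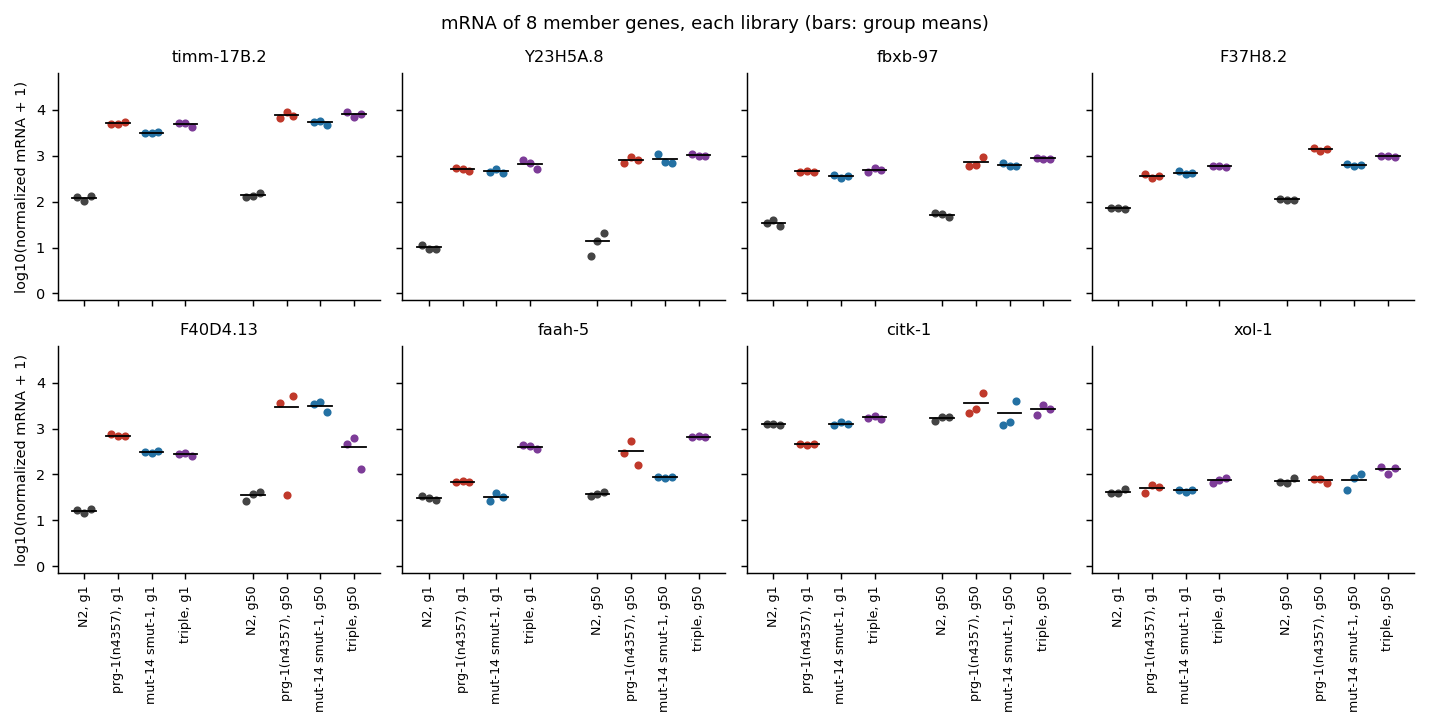
Normalized mRNA of 8 members in each generation 1 and generation 50 library, as log10 of the value plus 1, with bars at group means. timm-17B.2, Y23H5A.8, fbxb-97 and F37H8.2 are above N2 in every mutant library, citk-1 is below N2 in generation 1 prg-1, faah-5 is higher in the triple mutant than in the other genotypes of the same generation, and in F40D4.13 1 generation 50 prg-1 line is at the N2 level.

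At generation 50 the increases outnumbered the decreases. Of 1056 members tested 11.3% were higher and 3.98% lower in prg-1 (limma, adjusted p under 0.05), with a median of 0.04, against 7.41% and 3.8% of all genes. Past 2-fold there were 97 (9.19%) and 20 (1.89%), against 6.43% and 2.46%. Under library totals the split was 120 to 24. Single lines carry these counts: without N2 line 2 or line 3 or prg-1 line 2 the higher count was 70, 59 or 68, and the lower count was 26, 9 and 7 without N2 line 1, 2 and 3 and 7 and 16 without prg-1 line 2 and 3. Sperm markers were higher here too (9 of 12), and the part of this was not tested. Of the 290 members higher at generation 1, 102 were called higher at generation 50 (35.2%, against 27.2% of all genes) and 8 lower. Of 234 lower and tested at both, 21 were called lower again (8.97%, against 4.81%) and 3 higher. Across 991 members the changes at the 2 generations, which have separate N2 libraries, correlated with r = 0.752 and rho = 0.533.

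Y23H5A.8 stayed high at generation 50, with 5.61, 12.7 and 19.2 in N2 and 690.6, 947.9 and 792.8 in prg-1 (log2 change 6.04). timm-17B.2 changed by 5.78, bath-13 by 5.42, fbxb-97 by 3.77 and F37H8.2 by 3.62. parn-1 changed by 1.90 and wago-2 by 1.11. The tertiles by N2 small RNA level, a value that the rule used, were read at generation 50 too. The calls were 79 higher and 10 lower of 367 in the highest tertile. They were 26 and 12 of 359 in the middle and 14 and 20 of 330 in the lowest. As shares these were 21.5% and 2.72%, 7.24% and 3.34%, and 4.24% and 6.06%. Over all genes 7.41% were higher and 3.8% lower.

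The decreases at generation 50 included lag-2, the Notch ligand that maintains germline stem cells, at 43.5, 23.2 and 32.8 in N2 and 10.8, 8.03 and 3.57 in prg-1 (log2 change -2.07 ± 0.46, limma adjusted p = 0.0198). Its generation 1 mRNA was under 10 in every library. R05A10.1 was 421.8, 355.8 and 346.8 in N2 and 4.99, 7.65 and 3.85 in prg-1, yet at most 2.53 in any generation 1 N2 library. K08E5.1 was lower at both generations, by -1.34 and -1.45. These groups did not overlap.

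The 3 prg-1 lines of generation 50 did not always match. In 13 members at least 1 line exceeded 10 times the lowest line plus 5 in small RNA. This list and its genes were chosen after the values were seen. In 4 of the 13 the line with the most small RNA was the one with the least mRNA. With 3 lines, unrelated values would coincide so in 1 of 3 genes, so nothing is read from that count. F40D4.13 small RNA was 56.6, 1141 and 66.6 in lines 1, 2 and 3, and its mRNA 3605, 34.1 and 5010, with N2 at 25.3, 37.2 and 39.6. Line 2 was thus at the wild-type mRNA level, and the mean change of 4.64 ± 1.43 missed the threshold (limma adjusted p = 0.058). F58D2.4 had small RNA of 52.4, 4158 and 44.1 and mRNA of 205.0, 38.2 and 340.5 against 11.2, 9.26 and 6.78 in N2. Y61A9LA.12 had small RNA of 56.6, 342.2 and 11.8 and mRNA of 185.0, 80.3 and 213.1 in the prg-1 lines. In faah-5 line 3 had the most small RNA and the least mRNA, at 157.1 against 292.9 and 542.2. The other 9 of the 13 did not show this order, among them F37H8.2, whose mRNA was 1450, 1295 and 1379.

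In mut-14 smut-1, which also carries an unc-119 allele that N2 does not, the mRNA of members was again split. At generation 1, 320 were higher (32.2%) and 359 lower (36.2%) of 993 (limma, adjusted p under 0.05), against 38.1% and 39.9% of all genes, with a median of -0.03. By 2-fold or more 125 rose (12.6%) and 66 fell (6.65%), against 19.1% and 2.55% of all genes. Increases of that size were thus a smaller share of members than of all genes, and decreases a larger one. Under library totals, which move the median of all genes from 0.04 to 0.27, the split was 399 to 239. At generation 50, 161 were higher (15.2%) and 128 lower (12.1%) of 1056, against 16.5% and 11.3% of all genes, and 170 and 84 under library totals. Without N2 line 3 there were 107 higher, and without N2 line 1, 2 or 3 or mut-14 smut-1 line 1 there were 70, 64, 48 or 85 lower. timm-17B.2 was 3170, 3083 and 3267 at generation 1 and F37H8.2 453.6, 409.0 and 411.0, all above N2. fbxa-11, an F-box gene, was 411.1, 410.1 and 393.7 against 18.9, 22.7 and 23.1 in N2 and 99.98, 91.8 and 85.0 in prg-1. F-box members as a group were mostly lower at generation 1, with 29 lower and 10 higher of 47 and a median of -0.55 (20 and 11 with a median of -0.33 under library totals). Sperm markers were higher (12 of 12), hypodermis (5 of 5) and body wall muscle (5 of 5) markers higher and oocyte markers lower (10 of 10) in these libraries, and the part of these was not tested.

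Some members had more mRNA in the triple mutant than in mut-14 smut-1, strains that differ at unc-119 as well as at prg-1. At generation 1, 106 members were higher (10.7%) and 34 lower (3.42%) in the triple mutant than in mut-14 smut-1 (limma, adjusted p under 0.05), against 6.01% and 5.51% of all genes. By 2-fold or more there were 32 (3.22%) and 4 (0.403%), against 1.16% and 0.363%. The 4 were C16C8.20, C16C8.21, C27D8.3 and pmk-2, a p38 MAP kinase. Without mut-14 smut-1 replicate 2 or 3 the lower count was 18 or 22. Sperm markers were higher in 6 of 12 in this comparison, and the part of this was not tested. faah-5 mRNA was 24.9, 39.3 and 30.5 in mut-14 smut-1, near N2 at 33.5, 29.3 and 26.2, and 440.2, 420.6 and 350.9 in the triple mutant, with prg-1 between at 66.7, 72.5 and 67.4. T11F9.10 was 6.42, 7.63 and 12.46 in mut-14 smut-1, against 134.9, 124.8 and 117.6 in the triple mutant. W04A8.9 was 10.4, 6.54 and 3.46 in mut-14 smut-1, against 61.4, 83.2 and 80.4 in the triple mutant, with prg-1 at 79.7, 74.9 and 91.6. In these 3 genes the triple mutant stood apart from mut-14 smut-1, while small RNA of T11F9.10 did not pass the test (log2 change -0.38, limma adjusted p = 0.82). xol-1 was higher in the triple mutant, at 63.9, 75.6 and 82.4 against 45.6, 40.2 and 45.3 (log2 change 0.74, limma adjusted p = 0.0137).

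At generation 50, 16 members were higher and 5 lower in the triple mutant than in mut-14 smut-1 (limma, adjusted p under 0.05; 1.41% and 0.545% of all genes), and under library totals 8 and 7. The count moved to 83 higher and 40 lower without mut-14 smut-1 line 3 and to 3 or 4 higher and 2 lower without any 1 triple mutant line, and to 3 lower without mut-14 smut-1 line 2. The 5 lower ones were C16C8.20, C16C8.21, F13H8.8, K02B7.3 and T25B9.8. C16C8.20 and C16C8.21 mRNA was listed at 0 in every triple mutant library of both generations. The triple mutant is a single strain, so a feature of that strain and an effect of prg-1 cannot be told apart for these genes. Oocyte markers were higher in 7 of 10 in this comparison, with sums of 130081 to 149735 in mut-14 smut-1 lines and 198742 to 217899 in triple mutant lines, and the part of this was not tested. C16C8.20 was 36.1, 28.3 and 37.8 in generation 1 N2, 50.7, 49.5 and 82.8 in prg-1 and 57.8, 46.9 and 67.1 with both helicases mutated.

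The mRNA effect of prg-1 loss was also compared between backgrounds with and without the helicases. In the mutator background the strains compared also differ at unc-119, so an effect of prg-1 cannot be told apart from that difference there. The difference between the prg-1 effect in the mutator background and in the wild-type background was positive in 194 members and negative in 188 at generation 1 (limma interaction, adjusted p under 0.05; 19.9% and 17.2% of all genes), shares near those of all genes, at 19.5% and 18.9% of members. Under library totals the split was 120 to 224. In the same interaction 10 of 12 sperm and 4 of 5 body wall muscle markers were lower and 7 of 10 oocyte markers higher, and the part of these was not tested. In timm-17B.2 the log2 change was 5.42 in prg-1 against N2 and 0.61 in the triple mutant against mut-14 smut-1, a difference of -4.81 ± 0.13. In citk-1 it was -1.45 in the wild-type background and 0.46 in the mutator background, a difference of 1.91 ± 0.09.

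In the generation 50 lines that difference was positive in 27 members and negative in 57 (limma interaction, adjusted p under 0.05; 1.73% and 2.86% of all genes, against 2.56% and 5.4% of members), and 14 and 76 under library totals. Of the markers, 4 of 10 oocyte genes were higher and 1 of 12 sperm genes lower in this interaction, and the part of these was not tested. The member counts moved with single lines. The positive count was 15 or 6 without N2 line 2 or 3, 11 or 65 without mut-14 smut-1 line 1 or 3, 8 or 15 without prg-1 line 2 or 3, and 7, 5 or 15 without triple mutant line 1, 2 or 3. The negative count was 33 or 26 without N2 line 2 or 3, 33 or 86 without mut-14 smut-1 line 1 or 3, 34 or 33 without prg-1 line 1 or 2, and 30, 26 or 30 without triple mutant line 1, 2 or 3. bath-13 was among the negative ones (-4.54 ± 0.56), at 5.42 in the wild-type background and 0.88 in the mutator background.

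Members tended to lie beside each other in the genome, as did other mut-class genes. Of 1127 members placed in the WBcel235 gene order, 249 had another member as an immediate neighbour (22.1%), while 1917 of the 20777 other genes lay beside a member (9.23%). There were 95 runs of 2 members, 18 of 3 and 1 of 5, the last made of clp-8, F44F1.5, F44F1.6, F44F1.4 and vet-6. For the 427 mut-class genes with a ratio of 0.5 to 2 45 of 331 lay beside another of the set (13.6%), against 2.8% of the genes outside it. For the mut-class genes with a ratio over 2 it was 53 of 273 (19.4%), against 2.19%. The trait is therefore not particular to the members. Identical values were listed for 12 members in 6 pairs, such as AC8.4 with AC8.11 and Y71A12B.2 with Y71A12B.3, whose reads could not be told apart, and neighbouring or overlapping genes may share reads where counting by strand is not stated.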

How the data were processed

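The authors deposited normalized values per gene, a signal in which read counts were divided by a factor per library. In the small RNA tables all values came out as whole reads within 0.01 when divided by the smallest step, and these reads were used for the count tests below. Read depths of the mRNA libraries were not recovered; their normalized totals ran from 15430085 to 18889857 at generation 1 and from 27178400 to 33364637 at generation 50. Per the labels' protocols, mRNA libraries came from rRNA-depleted RNA over 200 nt, with a pair of stranded kits not assigned to libraries, and small RNA was gel-selected and treated with polyphosphatase. The sources used here give no aligner or genome build.

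The members and the lists were chosen with earlier results of these data known. Because the values are normalized, limma 3.58.1 in R 4.3.3 was used on log2(value + 1), on all features reaching 10 in as many libraries as the smallest group, with every group of a table in 1 fit (limma-trend). Benjamini-Hochberg adjusted p under 0.05 over the whole table was called. The fits were tested on simulated data. Among the members, genes were named by a rule: fbxb-97, xol-1 and pals-22, the 10 highest N2 levels, the 6 largest changes each way without overlap in the mRNA comparisons, the 5 highest and lowest small RNA ratios, members called against the rule's direction, those nearest the limits, up to 3 per family, pathway genes with the 3 smallest p each way, the mutated genes, and counts of 5 or fewer; a selection is printed. The 5 largest changes each way in the interaction and in the triple mutant against mut-14 smut-1 were added after their values were seen. Second entries of a gene, 158 in each mRNA table, were dropped. Gene order came from RefSeq names of assembly WBcel235. Alternatives were library totals, median-ratio scaling, no filter, a stricter filter at 10 per 1000000 of the library total, a pseudocount of 5, edgeR 4.0.16 and DESeq2 1.42.0 on recovered reads, a replicate block, only the groups compared, stricter membership, and leaving out each library. Replicate numbers did not pair the libraries. Leaving out piRNAs and miRNAs at generation 50, and members in another class or with shared values, was chosen after seeing the data.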

Additional observations from a re-analysis of the deposited data

Results flagged for a closer look

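The effect of prg-1 loss on mRNA differed between the mutator background and the wild-type background, by the interaction test of the limma fit, in 194 members upwards and 188 downwards at generation 1 and in 27 and 57 at generation 50. At generation 1 these were 19.5% and 18.9% of members, near the 19.9% and 17.2% of all genes. At generation 50 they were 2.56% and 5.4% of members, against 1.73% and 2.86% of all genes. The mutator background side of this comparison also crosses unc-119, which cannot be told apart from prg-1 there. The libraries that move the generation 50 counts are given with them above.

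These genes were chosen after the values were seen. At generation 1 the largest positive differences on the log2 scale were csp-1 at 2.83, faah-5 at 2.46, ceh-82 at 2.27, C52A10.3 at 2.21 and citk-1 at 1.91. The largest negative ones were C16C8.20 at -6.64, F40D4.13 at -5.64, Y23H5A.8 at -5.14, timm-17B.2 at -4.81 and C16C8.21 at -4.04.

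At generation 50 the largest positive differences were R05A10.1 at 5.79, kola-1 at 3.48, K08E5.1 at 2.99, C03H5.6 at 2.19 and alg-1, a microRNA Argonaute, at 2.08. The largest negative ones were C16C8.20 at -8.23, F40D4.13 at -7.86, C16C8.21 at -6.17, Y23H5A.8 at -5.72 and timm-17B.2 at -5.19. C16C8.20 and C16C8.21 are listed at 0 in the triple mutant, so their fitted values depend on the pseudocount. Here too a feature of that strain and an effect of prg-1 cannot be told apart. The 3 prg-1 lines of F40D4.13 were far apart at generation 50, at 3605, 34.1 and 5010.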

How the results depend on the processing

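Of 452 alternative counts of called members, 351 stayed within 1.5 times the reported count and 101 did not. Among changes of single named genes that passed the test with all settings as reported, alternatives held direction and call in 13733 cases, lost the call in 978 and turned direction in 7, all under library totals: K09A9.6 (0.021) in small RNA and lec-12 (0.056) and prde-1 (0.045) in mRNA of generation 1 mut-14 smut-1, and Y116A8C.38 (-0.021), dpy-31 (-0.0017), prx-11 (-0.057) and saeg-2 (-0.0047) in tm872 small RNA. The cause was not tested. Changes that had missed the test are not in these counts; of those, fbxa-218 (0.50 to -0.09), dpy-31 (0.44 to -0.15) and T27F6.8 (0.50 to -0.09) in generation 1 prg-1 small RNA also changed sign under library totals. Counts below are of members higher and lower, and fewer features tested lower them under the stricter filter, as fewer members do under stricter membership.

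Under the stricter filter the counts were 140 higher for mRNA of prg-1 at generation 1, 150 and 207 for mut-14 smut-1, 54 higher for the triple mutant against mut-14 smut-1 and 118 lower for the interaction. At generation 50 they were 40 and 13, 68 and 53, and 8 and 25 for the interaction. Small RNA of the triple mutant at generation 50 gave 11 higher. Under library totals, generation 1 mRNA gave 144 lower for prg-1, 239 lower for mut-14 smut-1 and 120 higher for the interaction. Generation 50 mRNA gave 24 lower, 84 lower, 8 higher for the triple mutant and 14 higher for the interaction. Generation 1 small RNA gave 5 higher for the double mutant and 10 for the triple.

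At 0.5 times the ratio limit, generation 1 mRNA gave 147 lower for prg-1 and 237 for mut-14 smut-1, and small RNA of the triple mutant 2 higher at generation 1 and 9 at generation 50. At an N2 mean of at least 200 there were 153 lower in generation 1 prg-1, and at generation 50 24 lower for prg-1, 82 for mut-14 smut-1, 3 in the triple mutant and 17 higher for the interaction. With only the groups compared, generation 50 mRNA gave 89 and 42 for the double mutant and 1 and 1 for the triple. Small RNA gave 42 higher in generation 1 prg-1, and in the triple mutant 16 lower at generation 1 and 8 and 162 at generation 50. Without a filter, generation 50 mRNA gave 2 lower in the triple mutant and 15 higher for the interaction, and generation 1 small RNA 30 lower in the triple mutant.

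edgeR on recovered reads gave 42 higher in generation 1 prg-1, 2 higher in the triple mutant, and 209 lower in the triple mutant at generation 50. DESeq2 gave 3 and 27 in the triple mutant at generation 1 and 11 higher at generation 50. Without piRNAs and miRNAs 8 were higher in that comparison. Without members in another class or with shared values, 3 were lower in generation 50 triple mutant mRNA and 0 higher in generation 1 mut-14 smut-1 small RNA (limma). There prde-1 is left out, the 1 member higher at limma unadjusted p under 0.05 among all members, and edgeR and DESeq2 each called 1.

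Leaving out each library in turn gave, for higher and lower, 258 to 278 and 201 to 223 in generation 1 prg-1 mRNA, 297 to 307 and 333 to 346 for mut-14 smut-1, 71 to 83 and 18 to 33 in the triple mutant, and 157 to 188 and 160 to 190 for the interaction. At generation 50 the ranges were 59 to 108 and 7 to 42, 107 to 174 and 48 to 177, 3 to 83 and 2 to 40, and 5 to 65 and 26 to 86. Small RNA gave 21 to 22 and 954 to 959 in generation 1 prg-1, 1 to 1 and 1020 to 1023 for mut-14 smut-1, 2 to 12 and 14 to 103 in the triple mutant, 12 to 28 and 292 to 358 in the triple mutant at generation 50, and 54 to 58 and 960 to 962 in tm872. Where 1 generation 1 small RNA library of mut-14 smut-1 remains, its spread is taken from the other groups.

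Same-numbered libraries deviated together in few pairs, with correlations of -0.093 to 0.12 in generation 1 mRNA, -0.267 to 0.328 in generation 50 mRNA and -0.226 to 0.13 in the small RNA tables. With the replicate number as a block the generation 50 interaction gave 10 higher and the triple mutant mRNA 2 lower, and no other count moved by more than 1.5 times. The 5 generation 1 small RNA libraries of mut-14 smut-1 and the triple mutant, at 224056 to 760735 reads, were the shallowest, and a gene without a read there may lie below detection.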
